A study of Homo sapiens with 2 samples.

Results

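The respiratory chain subunits are the proteins of the 5 complexes that carry out oxidative phosphorylation in the mitochondrial inner membrane. The genes were chosen by symbol, as protein-coding genes named NDUFA, NDUFB, NDUFC, NDUFS or NDUFV with a number, SDHA to SDHD, UQCR, CYC1, COX4 to COX8, ATP5F1, ATP5M or ATP5P, and MT-ND, MT-CO, MT-CYB or MT-ATP. Of 62702 rows in the count table, 220 matched these names, and 100 of them were protein-coding in GENCODE 29 (GRCh38). Of the 100 genes, 87 lie in the nuclear genome and 13 in the mitochondrial genome, and 93 (80 nuclear and 13 mitochondrial) reached 100 counts over both libraries. A total of 11321 genes of the table reached that minimum.

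Poly(A) RNA was sequenced from K562, a human erythroleukaemia line, in cells labelled WT that express E50_dCas9-KRAB, a catalytically dead Cas9 fused to a repressor domain. Of the libraries, 1 came from cells given sgRNA_Control and the other from cells given sgRNA_SMC1A, which targets a subunit of the cohesin ring. Both received the guide by lentivirus with a blue fluorescent marker, were held in 1 ug/ml puromycin from day 2 to day 6, and were sorted for high marker signal at harvest. Each guide had 1 library, so no difference between guides has a replicate check and no p-value is given. The intervals below are exact 95% intervals of the ratio of counts and cover counting error only. Reads carry no molecular identifiers in these sources, so a count is not known to be an independent molecule.

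The libraries held 18349209 (control guide) and 16864207 (SMC1A guide) counts. SMC1A (chrX:53374149-53422728, minus strand) had 8077 counts, or 460 CPM (counts scaled to a common library size), in the control library and 288 counts, or 16.3 CPM, in the SMC1A library, which is 28.1-fold lower. All 10 K562 markers examined reached 100 counts, with sums of 14561 and 13397 CPM. Of these markers, the globin genes HBG2, HBZ and HBG1 had log2 ratios of -1.68, -1.56 and -1.50, the transferrin receptor gene TFRC -1.41, and HBE1 0.62, so these erythroid markers differed between the libraries, and their part in the values below was not tested. Markers of muscle and heart summed to 0 and 0.283 CPM, with 4 of 6 at 0 in both libraries, and those of liver to 0.456 and 0.113 CPM. Other lists had signal. The 6 fibroblast and epithelium markers summed to 177 and 130 CPM, mostly EPCAM (2978 and 2019 counts), with COL1A1 at 64 and 233 counts and KRT5 and KRT14 at 0. The 6 T and B lymphocyte markers summed to 19.2 and 27.6 CPM, with MS4A1 at 0, and the 6 monocyte and granulocyte markers to 19.0 and 26.3 CPM, mostly LYZ (319 and 428 counts), with MPO and ELANE at 0. The part of these markers in the values below was not tested either. In bulk RNA, fewer cells with a transcript and less of it per cell cannot be told apart.

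Complex I (NADH dehydrogenase) and complex II (succinate dehydrogenase) pass electrons to coenzyme Q, complex III (the cytochrome bc1 complex) passes them to cytochrome c, and complex IV (cytochrome c oxidase) passes them to oxygen. Complexes I, III and IV pump protons, and complex V (ATP synthase) uses their return to make ATP. Complex II is built only of nuclear products, while the other complexes join nuclear subunits made in the cytosol to a hydrophobic core translated on mitochondrial ribosomes.

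Subunit mRNAs stayed close to equal between the guides. No member with at least 100 counts was 2-fold higher or 2-fold lower with the SMC1A guide, where 5.11% of all tested genes were 2-fold higher and 2.32% were 2-fold lower (7.44% in either direction). The log2 ratio of CPM (SMC1A guide over control guide, scaled with edgeR's trimmed mean of M values, TMM) had a median of -0.16 over the 93 members, with quartiles of -0.26 and -0.01. The median over all tested genes was -0.05, so the members' median lay 0.11 lower on the log2 scale. The 2265 genes of highest mean level, 20% of those tested, had a median of -0.19, and the members' median was 0.03 above it. Of these 2265 genes, 28 were 2-fold higher and 37 were 2-fold lower, a smaller share than over all tested genes. Within 1.5-fold lay 98.9% of members, 78.8% of all tested genes, 85.7% of the genes of highest level and 97.6% of cytosolic ribosomal protein genes. The exception was NDUFC1, the 1 member 1.5-fold higher (12.2% of all tested genes), and no member was 1.5-fold lower (9.06%). The 1.5-fold limit was chosen after the values were seen.

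Of the 93 members, 72 had a log2 ratio below 0 and 21 above it. The whole counting interval lay below 0 for 57 members (61.3%, against 38.7% of all tested genes and 64.7% of the genes of highest level) and above 0 for 10 (10.8%, against 29.4% and 23.3%), and it held 0 for 26. Scaling by library totals instead of TMM adds 0.13 to every log2 ratio, so any ratio between -0.13 and 0 has the opposite sign by that scaling. By library totals 45 of the 80 nuclear members were below 0 and 35 above, against 61 and 19 by TMM, and 6 of the 13 mitochondrial members were below and 7 above, against 11 and 2. Differences among members do not depend on the scaling.

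**Figure D1:**
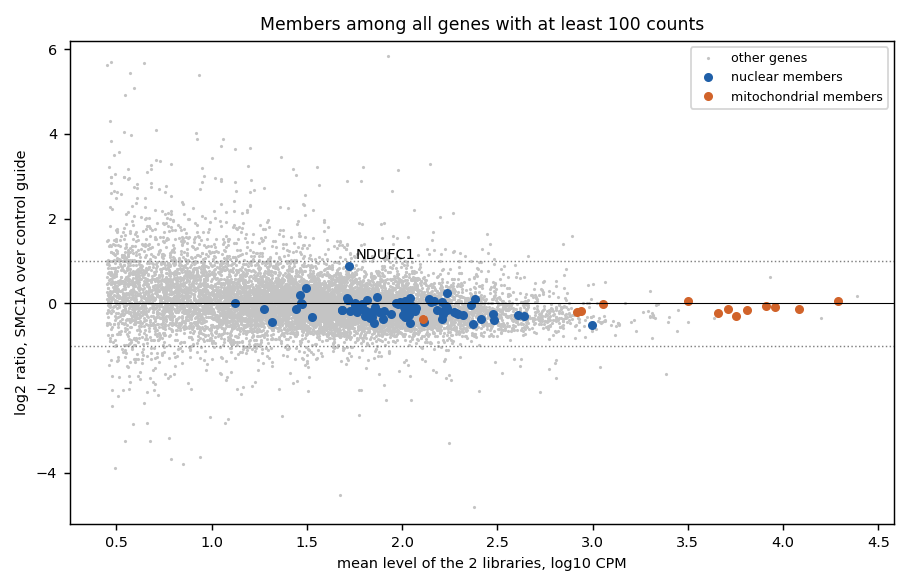
Log2 ratio of CPM (SMC1A guide over control guide, TMM scaling) against the mean level of both libraries on a log10 axis, 1 point per gene with at least 100 counts; dotted lines mark 2-fold. The nuclear (blue) and mitochondrial (orange) members lie inside the 2-fold lines, from -0.50 for ATP5F1B to 0.88 for NDUFC1; library totals would add 0.13 to every point and put NDUFC1 past 2-fold.

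Complex I had 43 members with at least 100 counts, and their median log2 ratio was -0.13. Its 7 nuclear core subunits, which hold the flavin and the iron-sulfur clusters on the matrix arm, were all below 0 by TMM, with a median of -0.17. NDUFS3 was the lowest of them at 1345 and 1089 counts (76.7 and 61.7 CPM; log2 ratio -0.31, interval -0.43 to -0.20). NDUFV2 was the highest at 1960 and 1824 counts (112 and 103 CPM; -0.11, -0.20 to -0.02), and it turns positive by library totals.

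The 29 other nuclear subunits of complex I, which surround the core, spread more widely and held both ends of the complex. NDUFB9 (275 and 196 CPM; -0.48, -0.55 to -0.42), NDUFA10 (151 and 111 CPM; -0.45) and NDUFS5 (183 and 141 CPM; -0.37) were lowest. NDUFC1, a small subunit of the membrane arm, was highest, with 646 counts (36.8 CPM) for the control guide and 1198 counts (67.9 CPM) for the SMC1A guide. Its log2 ratio was 0.88 (0.74 to 1.02), or 1.84-fold, and the interval lay clear of that of every other member with at least 100 counts. NDUFA7 (482 and 623 counts; 0.36, 0.19 to 0.54) and NDUFB1 (477 and 553 counts; 0.21, 0.03 to 0.39) followed.

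Complex II had a median of -0.25 over its 4 subunits, about that of complex III (-0.24). SDHB, the iron-sulfur subunit, had 1581 and 1229 counts (90.1 and 69.7 CPM; -0.37, -0.48 to -0.26). SDHA, the flavoprotein, had 3149 and 2637 counts (179 and 150 CPM; -0.26, -0.34 to -0.19). The membrane anchors differed from each other, with SDHD at 116 and 98.7 CPM (-0.23, -0.32 to -0.14) and SDHC at 96.4 and 94.9 CPM (-0.02, -0.12 to 0.08); by library totals SDHC turns positive.

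Complex III had a median of -0.24 over 11 members. UQCRC1, a core protein without a redox group, was lowest, at 2238 and 1634 counts (128 and 92.6 CPM; -0.46, -0.55 to -0.37), and the other core protein, UQCRC2, was at 228 and 187 CPM (-0.28). The nuclear redox subunits CYC1 (cytochrome c1; 207 and 175 CPM, -0.24) and UQCRFS1 (the Rieske iron-sulfur protein; 119 and 99.1 CPM, -0.27) lay near the mitochondrially encoded MT-CYB (cytochrome b; 4888 and 4200 CPM, -0.22). These redox subunits of both genomes lay within 0.05 of each other on the log2 scale. UQCRB was the highest member, at 233 and 250 CPM (0.11, 0.04 to 0.17), followed by UQCR10 (50.6 and 53.8 CPM; 0.09, -0.05 to 0.22) and UQCR11 (115 and 109 CPM; -0.07, positive by library totals).

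Complex IV had a median of -0.07 over 15 members. By TMM that was the median nearest to 0 of the 5 complexes, but by library totals it becomes 0.06, and complexes I (0.00) and V (-0.05) are nearer. Its nuclear subunits lay on both sides of 0. COX5A (115 and 91.6 CPM; -0.32), COX7C (111 and 91.9 CPM; -0.28) and COX4I1 (327 and 274 CPM; -0.25) were lowest. COX6B1 (145 and 150 CPM; 0.05), COX7B (102 and 106 CPM; 0.05) and COX8A (140 and 144 CPM; 0.04) were highest, each with an interval that held 0.

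Complex IV also has tissue-specific forms of several subunits. The forms of heart, muscle, lung or testis were at or near 0 in both libraries. COX4I2, COX6A2, COX7A1 and COX8C had 0 counts in both, COX7B2 had 3 and 3, and COX6B2 had 13 and 5 (log2 ratio -1.23, -3.23 to 0.19). A count of 0 allows up to 3 counts, or 0.171 CPM in the control and 0.170 CPM in the SMC1A guide library. Their widely expressed counterparts COX4I1, COX6A1, COX7A2, COX8A, COX7B and COX6B1 had between 1688 and 5733 counts in the control library. No change to or from these tissue forms was detectable at this depth. COX7A2L, a relative of COX7A2, was expressed, at 68.8 and 60.5 CPM (-0.19, -0.31 to -0.07). COX7A2 itself had 96.2 and 97.9 CPM (0.03, -0.07 to 0.12).

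Complex V had a median of -0.18 over 20 members and held the most abundant nuclear member. ATP5F1B (chr12:56638175-56646068, minus strand), the catalytic beta subunit of the F1 head, had 20493 counts (1168 CPM) and 14521 counts (823 CPM), the lowest log2 ratio of the members with at least 100 counts at -0.50 (-0.54 to -0.47). The alpha subunit gene ATP5F1A, whose product pairs with beta in equal numbers, had 7843 and 6508 counts (447 and 369 CPM; -0.28, -0.32 to -0.23), so the intervals of the pair did not overlap. ATP5F1E, the epsilon subunit of the central stalk, was on the other side of 0, at 134 and 144 CPM (0.10, 0.02 to 0.18). In the peripheral stalk ATP5PB (343 and 263 CPM; -0.39) stood apart from ATP5PF, ATP5PD and ATP5PO, which lay between -0.12 and -0.04 and turn positive by library totals. ATP5MG, subunit g of the membrane part, was the highest of complex V, with 2760 and 3294 counts (157 and 187 CPM; 0.25, 0.17 to 0.32), and ATP5ME (63.6 and 66.8 CPM; 0.07) was the third.

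Several members have near-identical or overlapping relatives. ATP5MC1, ATP5MC2 and ATP5MC3 encode the same mature c subunit, which forms the rotor ring, behind different import sequences. ATP5MC1 had 82.4 and 59.8 CPM (-0.46, -0.58 to -0.35) and ATP5MC3 had 293 and 228 CPM (-0.36, -0.42 to -0.30), while ATP5MC2 had 161 and 165 CPM (0.03, -0.04 to 0.11). Per ATP5MC2 count there were 0.512 and 0.363 ATP5MC1 counts, and 1.82 and 1.38 ATP5MC3 counts, so the share of ATP5MC2 in the 3 genes was higher with the SMC1A guide whatever the scaling. UQCRHL, an intronless copy of UQCRH (the hinge protein of complex III), had 0.0778 and 0.0772 counts per UQCRH count, and both had nearly the same log2 ratio (-0.31 and -0.30); the counting could split reads between them. The readthrough gene ATP5MF-PTCD1 (419 and 308 counts; -0.45, -0.67 to -0.24) shares exons with ATP5MF (-0.15) and PTCD1 (-0.71), and its value is uncertain for the same reason. ATP5MGL, a relative of ATP5MG, had 0 counts in both libraries.

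**Figure D2:**
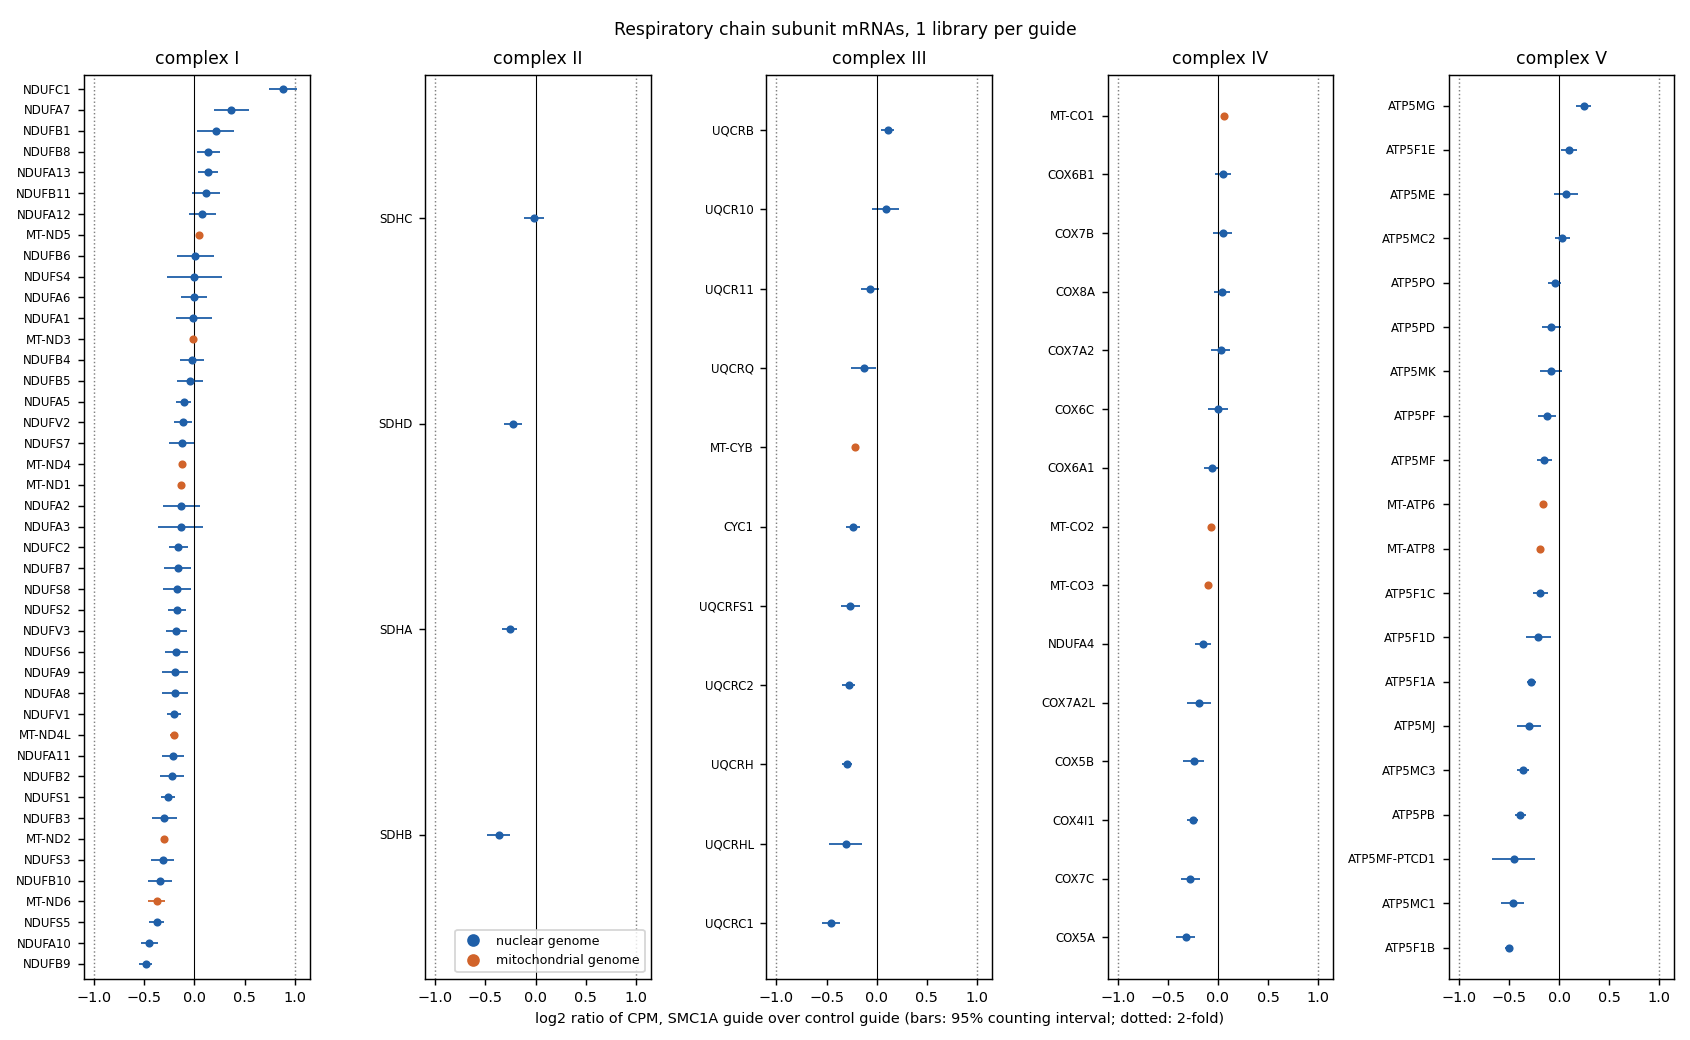
Log2 ratio of CPM (SMC1A guide over control guide, TMM scaling) of each member with at least 100 counts, ordered within complexes I to V; bars are 95% counting intervals, blue is the nuclear and orange the mitochondrial genome, dotted lines mark 2-fold. Medians run from -0.25 in complex II to -0.07 in complex IV (-0.12 and 0.06 by library totals), and NDUFC1 at 0.88 stands apart.

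The mitochondrial genome is transcribed as long precursors from both strands and cut into mRNAs, rRNAs and tRNAs, with all but MT-ND6 among the mRNAs read from the same precursor. The 13 mitochondrial members made up 7.531% of counts in the control library and 7.769% in the SMC1A library. The 80 nuclear members made up 1.023% and 0.9755%. The median log2 ratio was -0.13 for mitochondrial members and -0.16 for nuclear members. For summed counts it was -0.08 (-0.09 to -0.08) and -0.20 (-0.21 to -0.19). Per nuclear member count there were 7.36 mitochondrial counts in the control library and 7.96 in the SMC1A library, a log2 ratio of 0.11 (0.10 to 0.12) that needs no scaling. Without the most abundant gene of each genome, MT-CO1 and ATP5F1B, the values were 6.28 and 6.42 (0.03, 0.02 to 0.04).

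By complex, mitochondrial counts per nuclear count were 9.76 and 9.91 in complex I (log2 ratio 0.02), 2.94 and 2.90 in complex III (-0.02, -0.05 to 0.01), 22.5 and 24.3 in complex IV (0.11) and 1.98 and 2.11 in complex V (0.09). In complexes I and III the summed ratios of both genomes lay within 0.02 of each other on the log2 scale, while in complexes IV and V the summed mitochondrial side was higher relative to the nuclear side. Each of the latter differences was smaller without 1 gene. Without MT-CO1, complex IV had 10.9 and 11.1 (log2 ratio 0.03, 0.01 to 0.06), and without ATP5F1B, complex V had 2.83 and 2.82 (log2 ratio 0.00, -0.02 to 0.02). The complex V medians of the genomes were -0.18 (mitochondrial) and -0.17 (nuclear).

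Among the mitochondrial mRNAs, MT-CO1, the catalytic subunit of complex IV, had the highest level per kilobase of transcript, 12306 CPM per kb in the control library and 12791 in the SMC1A library. MT-ND6 had the lowest, at 277 and 214 CPM per kb, and the median of the 13 genes was 5628 and 4900. Nuclear members had medians of 115 and 108 CPM per kb, and the highest of them, UQCRH, had 795 and 646. Most mitochondrial mRNAs carry short poly(A) tails and MT-ND6 is known to lack one, and the part of the poly(A) selection in these levels was not tested.

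The 13 mitochondrial members did not share 1 ratio. MT-CO1 (chrM:5904-7445) had 332926 and 347860 counts (18975 and 19723 CPM; 0.06, 0.05 to 0.06) and MT-ND5 had 54686 and 56875 (3117 and 3225 CPM; 0.05, 0.03 to 0.07). MT-ND3 had 1132 and 1122 CPM (-0.01, -0.04 to 0.02). The other 10 had intervals below 0 by TMM.

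Of these, MT-CO2 (8274 and 7892 CPM; -0.07), MT-CO3 (9401 and 8794 CPM; -0.10), MT-ND4 (12577 and 11535 CPM; -0.12) and MT-ND1 (5380 and 4930 CPM; -0.13) become 0.06, 0.03, 0.00 and 0.00 by library totals, and MT-ND3 also turns positive. MT-ATP6 (6793 and 6065 CPM; -0.16), MT-ATP8 (926 and 812 CPM; -0.19), MT-ND4L (889 and 773 CPM; -0.20) and MT-CYB (-0.22) stayed below 0 by either scaling. MT-ATP8 and MT-ATP6 are read from 1 overlapping mRNA, as are MT-ND4L and MT-ND4. The intervals of MT-ATP8 (-0.22 to -0.16) and MT-ATP6 (-0.18 to -0.15) overlapped. Those of MT-ND4L (-0.24 to -0.17) and MT-ND4 (-0.13 to -0.12) did not, though the genes share an mRNA. How reads were assigned within such pairs was not tested, and the intervals do not cover it. The lowest were MT-ND2 (chrM:4470-5511), with 109953 and 90055 counts (6267 and 5106 CPM; -0.30, -0.31 to -0.28), and MT-ND6 (chrM:14149-14673), with 2553 and 1979 counts (146 and 112 CPM; -0.37, -0.46 to -0.29).

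MT-ND6 is the only member on the light strand and lies opposite other transcripts. The ratio to its neighbour MT-ND5 on the other strand was 21.4 MT-ND5 counts per MT-ND6 count in the control library and 28.7 in the other. MT-ND2 and MT-CO1 lie next to each other on the same strand, separated by tRNA genes, yet MT-CO1 counts per MT-ND2 count were 3.03 and 3.86 (log2 ratio 0.35, 0.34 to 0.37). Nuclear pseudogene copies can take reads from these genes. The 404 rows for such copies summed to 16411 and 13940 counts, 1.19% and 1.06% of the mitochondrial members' own counts. They came to 10.5% and 10.1% for MT-ATP6, 3.20% and 3.07% for MT-ND2 and at most 0.0862% for each of the other genes.

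**Figure D3:**
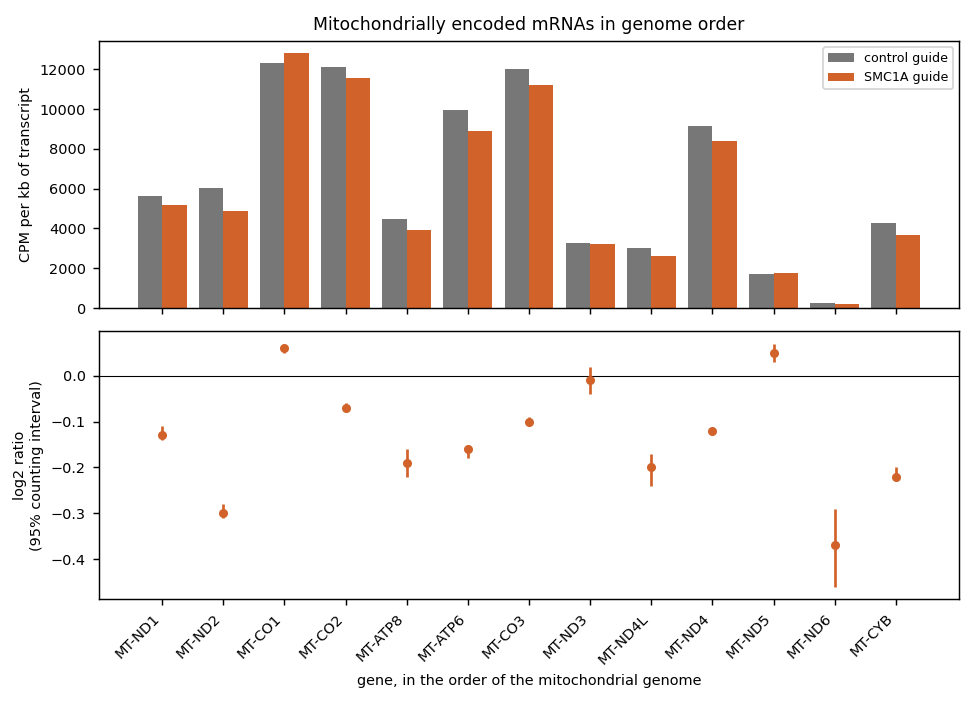
Upper panel, CPM per kb of transcript for the 13 mitochondrial members in genome order in the control (grey) and SMC1A guide (orange) libraries. Lower panel, log2 ratio (TMM scaling) with 95% counting intervals. MT-ND2 at -0.30 stands beside MT-CO1 at 0.06 on the same strand, and MT-ND6 is lowest at -0.37; by library totals MT-CO2, MT-CO3, MT-ND1, MT-ND3 and MT-ND4 are no longer below 0.

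Many nuclear members share a start region with a gene on the other strand. Of the 87 nuclear members, 31 had a head-to-head protein-coding neighbour with annotated starts within 1000 bases, and 24 pairs had at least 100 counts in each gene. Medians were -0.15 for the members and -0.16 for the neighbours. The member had the higher ratio in 11 of 24 pairs, and the signs were opposite in 9 by TMM. Across the 24 pairs Pearson's r was 0.01 and Spearman's rho 0.13, a description across genes of the same 2 libraries. This comparison was chosen after the values were seen.

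The widest gap, 1.36 on the log2 scale, was between NDUFC1 (0.88) and NAA15, which encodes a subunit of the NatA acetyltransferase, at 5426 and 3917 counts (-0.48, -0.54 to -0.42). NDUFC1 (chr4:139266880-139302551, minus strand) and NAA15 (chr4:139301455-139420033, plus strand) overlap in the annotation. NDUFA7 (0.36) and its neighbour RPS28, a small ribosomal subunit protein gene (5749 and 4485 counts; -0.37), also overlap. In ATP5MK (-0.08) and PDCD11 (4572 and 2693 counts; -0.77) the member was again the higher. GABPA, the DNA-binding subunit of a regulator of respiratory genes, was higher (0.21, 0.09 to 0.32) than its neighbour ATP5PF (-0.12). The library kit marks strand, but whether the counting used it is not given in the sources used here, so reads of overlapping genes on opposite strands may not be separated.

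**Figure D4:**
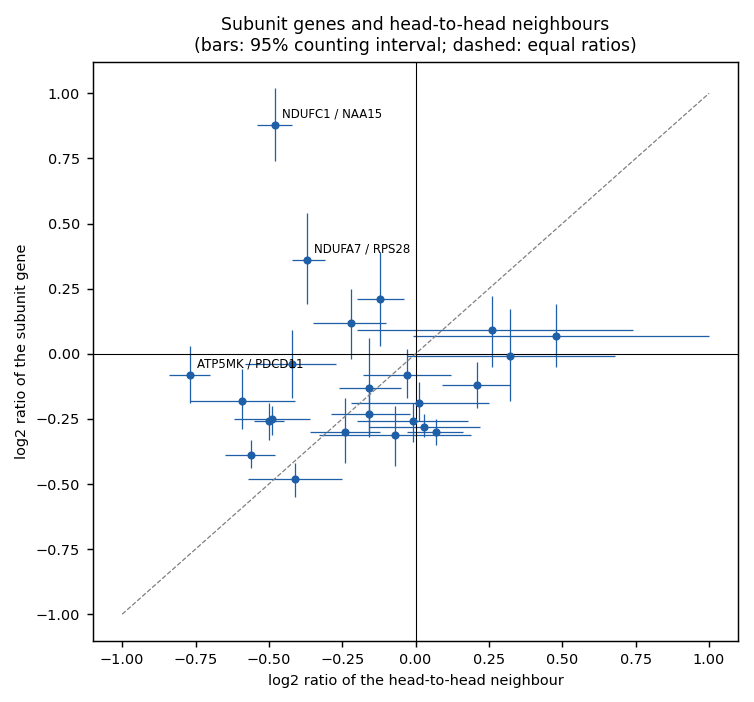
Log2 ratio (SMC1A guide over control guide, TMM scaling) of each subunit gene against that of its head-to-head neighbour for the pairs with at least 100 counts in each gene; bars are 95% counting intervals and the dashed line marks equal ratios. NDUFC1 (0.88) and NDUFA7 (0.36) lie above 0 while NAA15 (-0.48) and RPS28 (-0.37) lie below it; by library totals every point shifts by 0.13 along both axes.

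The promoters of 2 of the lowest nuclear members and of the 2 highest are shown to set the ends of the range side by side. Each runs from 250 bases before to 50 bases after the RefSeq start (GRCh38.p14), 5′ to 3′ on the gene's strand. The windows are chr17:48892537-48892836 (plus strand) for ATP5MC1, chr3:48609597-48609896 (minus) for UQCRC1, chr19:8321326-8321625 (minus) for NDUFA7 and chr4:139302502-139302801 (minus) for NDUFC1. Capitals mark matches, on either strand, to the motifs searched. They were the 4 spelled out here, a looser form of the NRF1 motif with its 2 central bases free and a core of the CTCF motif, all chosen after the values were seen. For the TATA box the letters were TATAAA. The NRF1 letters were CGCATGCG, those of YY1 were AAGATGGCG, and for ETS factors such as GABPA the search used CCGGAAG, whose end can overlap the start of a YY1 match.
ATP5MC1: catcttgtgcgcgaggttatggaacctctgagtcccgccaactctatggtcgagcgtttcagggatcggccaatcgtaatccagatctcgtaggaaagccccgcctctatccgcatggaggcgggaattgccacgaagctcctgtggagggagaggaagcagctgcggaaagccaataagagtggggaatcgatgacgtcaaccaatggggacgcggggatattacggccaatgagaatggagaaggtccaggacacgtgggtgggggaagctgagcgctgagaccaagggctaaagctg
UQCRC1: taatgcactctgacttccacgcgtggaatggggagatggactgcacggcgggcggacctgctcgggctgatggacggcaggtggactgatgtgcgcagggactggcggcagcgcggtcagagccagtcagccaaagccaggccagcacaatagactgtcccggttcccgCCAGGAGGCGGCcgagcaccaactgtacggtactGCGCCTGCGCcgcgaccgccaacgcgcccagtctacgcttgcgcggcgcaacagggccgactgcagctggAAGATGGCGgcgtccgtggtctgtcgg
NDUFA7: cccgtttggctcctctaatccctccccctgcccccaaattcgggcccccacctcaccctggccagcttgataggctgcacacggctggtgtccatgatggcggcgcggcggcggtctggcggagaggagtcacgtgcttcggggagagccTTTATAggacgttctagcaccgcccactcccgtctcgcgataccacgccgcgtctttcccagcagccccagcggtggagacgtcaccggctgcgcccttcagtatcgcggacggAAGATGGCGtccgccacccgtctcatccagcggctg
NDUFC1: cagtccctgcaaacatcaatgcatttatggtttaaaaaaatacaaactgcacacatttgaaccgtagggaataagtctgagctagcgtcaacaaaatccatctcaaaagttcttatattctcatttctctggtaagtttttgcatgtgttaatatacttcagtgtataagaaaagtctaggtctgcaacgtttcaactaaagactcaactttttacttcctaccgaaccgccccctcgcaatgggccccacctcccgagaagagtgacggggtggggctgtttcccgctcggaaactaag

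The UQCRC1 window held a match to the CTCF core, the looser NRF1 form and the YY1 letters, in that order, the NDUFA7 window to TATAAA on the other strand and to the YY1 letters, and the windows of ATP5MC1 and NDUFC1 to none. The NDUFC1 window lies inside the annotated span of NAA15. It covers 1 RefSeq start, while the nearest annotated starts of NDUFC1 and NAA15 lie 245 bases apart. Other annotated starts were not searched, so the lack of a match holds for this window only. RefSeq promoters were found for 68 of the 87 nuclear members, 64 of them with at least 100 counts. Among the 64, 15.6% held the NRF1 letters, 31.2% the ETS, 12.5% the YY1 and 9.38% the TATA letters. Among the 8525 matched promoters of protein-coding genes with the same minimum the shares were 4.40%, 22.2%, 4.60% and 4.95%. With the 80 members cut into 3 groups by log2 ratio, the NRF1 letters were in 0 of 19 promoters of the low group, 7 of 23 of the middle and 3 of 22 of the high group, which shows no steady order. The looser NRF1 form, which was searched first, was in 26.6% of the 64 against 17.5%, and in 5, 7 and 5 promoters of these groups. The CTCF core was in 3.12% against 2.97%. A match is a description of the letters in these windows.

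Ratios of nuclear members were lower for longer transcripts, in a comparison chosen after the values were seen. The median was -0.08 for the 32 members under 700 bases, -0.13 for 21 from 700 to 1000 bases, -0.19 for 16 from 1000 to 2000 bases and -0.26 for 11 of 2000 bases or more. None of those 11 was above 0. The lowest of them, ATP5MF-PTCD1 (-0.45) and UQCRHL (-0.31), have uncertain values because their reads may be shared with other genes. The trend without them was not tested. Protein-coding genes as a whole ran the other way, with medians of -0.16, -0.12, -0.09 and -0.03 in the same classes. Those among the genes of highest level had medians of -0.31, -0.22, -0.22 and -0.17. Spearman's rho of the log2 ratio with length was -0.31 over the 80 nuclear members and 0.09 over 10239 protein-coding genes, across genes that share the same libraries. With mean level in place of length, rho was -0.27 over the same 80 members and -0.25 over the 10239 genes, and length and level were not separated.

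Genes that build, supply and regulate the chain were taken from lists drawn up with earlier results of these data known. For assembly factors the medians were -0.25 for 18 genes of complex I and -0.21 for 37 genes of complexes II to V. The subunits had medians of -0.16 over all complexes and of -0.25 and -0.24 in complexes II and III. None of these assembly factor genes was past 2-fold in either direction, against 7.44% of all tested genes. NDUFAF6 (38.9 and 23.7 CPM; -0.71) and DMAC1 (20.1 and 12.5 CPM; -0.68) were lowest for complex I, and NDUFAF7 (26.7 and 26.6 CPM) and NDUFAF8 (24.4 and 26.3 CPM; 0.11) highest. For the other complexes PET117 (11.6 and 6.41 CPM; -0.85) and COA7 (160 and 90.6 CPM; -0.82), both cytochrome oxidase assembly factors, were lowest. COX20 (46.8 and 68.3 CPM; 0.54) and the copper chaperone COX17 (14.3 and 17.0 CPM; 0.25), which serve the same complex, were highest.

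The 30 genes that replicate, transcribe, process and mature the mitochondrial genome's RNA had a median of -0.45, the lowest of these lists. The 13 mitochondrial members had a median of -0.13. Of the 30, 29 were below 0 and 28 (93.3%) had the whole interval below 0, against 38.7% of all tested genes and 64.7% of those of highest level. The share past 2-fold was near the background, with 1 gene (3.33%) lower against 2.32% of all tested genes. That gene was TRMT10C, a subunit of mitochondrial RNase P, with 1171 and 546 counts (66.7 and 31.0 CPM; -1.11, -1.26 to -0.96), and by library totals it is at -0.98 and no longer past 2-fold. The helicase gene TWNK had 88.3 and 44.6 CPM (-0.99), while TEFM, a transcription elongation factor, had 13.3 and 11.7 CPM (-0.18) and FASTK 40.2 and 53.2 CPM (0.41). The 78 mitochondrial ribosomal protein genes had a median of -0.36 and the 82 cytosolic ribosomal protein genes -0.39. Their shares with the whole interval below 0 were 82.1% and 96.3%, and the import and inner membrane list had 95.5%. A high share was therefore not particular to mitochondrial genome expression.

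The 22 genes of import and inner membrane carriers had a median of -0.42. TOMM40 (-0.74) and TIMM50 (-0.71), parts of the outer and inner membrane import machineries, were lowest. The adenine nucleotide carriers SLC25A5 (-0.07, positive by library totals) and SLC25A4 (0.05) were highest, while the carriers SLC25A6 (-0.30) and SLC25A3 (-0.28) were lower. The tricarboxylic acid cycle list had a median of -0.30 over 18 genes, from DLAT (-0.70) and PDHA1 (-0.61) to IDH3G (-0.08, positive by library totals) and PDHX (0.05). DLAT, PDHA1 and PDHX, with PDHB (-0.18), belong to the pyruvate dehydrogenase complex. Neither list had a gene past 2-fold, against 7.44% of all tested genes, a share that would make few genes in lists of this size.

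Genes of cytochrome c and coenzyme Q had a median of -0.15 over 15 genes, from PDSS1 (-0.86) and COQ3 (-0.78), both of coenzyme Q synthesis, to COQ4 (0.17) and COQ8B (0.22). Of the 15, 10 were below 0 and 5 above it. Cytochrome c itself, CYCS, had 11922 and 8179 counts (680 and 464 CPM). Its log2 ratio was -0.55 (-0.59 to -0.51), below that of the lowest member, ATP5F1B (-0.50). Summed over the list, the counts had a log2 ratio of -0.41. The 13 nuclear regulators of respiratory genes had a median of -0.22; ESRRA (65.2 and 38.3 CPM; -0.77) and the coactivator PPARGC1B (35.3 and 21.2 CPM; -0.73) were lowest, CREB1 (0.09) and GABPA (0.21) highest. The 6 subunits and partners whose symbols fall outside the naming rule had a median of -0.24, from NDUFAB1, the acyl carrier protein in complex I (-0.41), and HIGD2A (-0.33) to HIGD1A (-0.15) and DMAC2L (0.11).

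Glycolysis had a median of -0.33 over 19 genes and an interquartile range of 0.49 against 0.26 for the subunits. That range was 0.58 over all tested genes and 0.45 over the genes of highest level. Among the other mitochondrial lists it ran from 0.18 (subunits and partners outside the naming rule) to 0.57 (cytochrome c and coenzyme Q). The tricarboxylic acid cycle list, at 0.28, was near the subunits, and the cytosolic ribosomal protein genes, at 0.13, were tighter than the subunits. Past 2-fold were 3 of the 19 (15.8%, against 7.44% of all tested genes), namely HK2, a hexokinase (118 and 53.5 CPM; -1.14), and PFKP, a phosphofructokinase (32.7 and 16.0 CPM; -1.03), both lower, and ENO2, an enolase (8.15 and 16.8 CPM; 1.04), higher. PKM, pyruvate kinase, had 172 and 337 CPM (0.97). By library totals PFKP, at -0.90, is no longer past 2-fold and PKM, at 1.1, is.

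**Figure D5:**
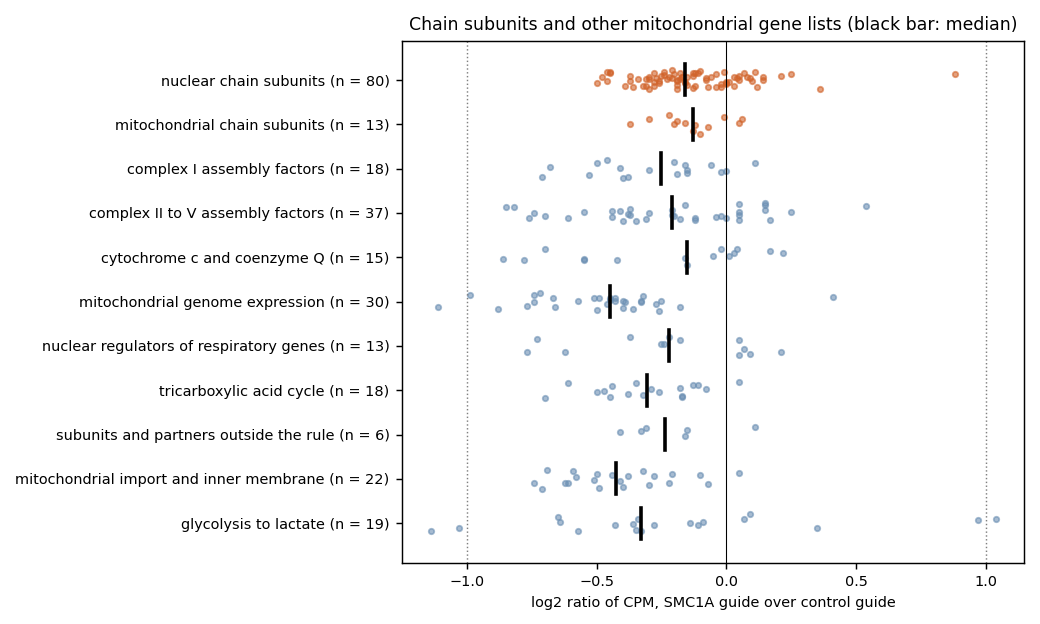
Log2 ratio (SMC1A guide over control guide, TMM scaling) of each gene with at least 100 counts in the subunit groups (orange) and the other mitochondrial and glycolytic lists (blue); black bars are medians and dotted lines mark 2-fold. The subunits (medians -0.16 and -0.13) cluster more tightly than glycolysis, and about as tightly as the tricarboxylic acid cycle list. Mitochondrial genome expression has the lowest median, -0.45. Library totals add 0.13 to every point.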

How the data were processed

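RNA was measured in 2 K562 libraries, 1 per guide, made with a poly(A) selection and a strand-marking kit and read as pairs of 100 bases, per the labels' protocols. The deposited values are estimated counts per gene in whole numbers, not scaled between libraries; STAR 2.7.10a, Salmon 1.10.1, DESeq2 1.42.1 and GRCh38 are named in the submitters' processing notes without roles, with the gene annotation not given in the sources used here. Counts by the authors entered as deposited.

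Symbols, gene types, coordinates and lengths (the median over basic protein-coding transcripts) came from GENCODE 29, in which all 100 members had an entry, and promoters from RefSeq (GRCh38.p14). Log2 ratios of CPM used edgeR 4.0.16 (R 4.3.3), TMM scaling and a prior count of 1; CPM refers to the TMM-scaled total. Intervals are exact Clopper-Pearson intervals of the counts at 95%, except for ratios of 4 summed or single counts, where a large-count interval replaced the planned exact one. Genes needed 100 counts over both libraries. A gene was called past 2-fold. The scaling, fold and interval steps were tested on simulated counts with counting error only, which cannot show the spread between cultures.

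The members and lists were chosen with earlier results of these data known. Named were SMC1A, all mitochondrial members, the 3 highest and 3 lowest nuclear members of each complex, genes with near-identical forms, and the 2 highest and 2 lowest genes of each list. A few other members and list genes illustrate a role, picked with their values known. NDUFA4 was placed in complex IV. Alternatives were other scalings, prior counts, minimums and member sets. No replicate exists, so no test between conditions was made.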

Additional observations from a re-analysis of the deposited data

Results flagged for a closer look

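These rows match the naming pattern or lie in the mitochondrial genome but are not protein-coding members, and each had counts above the limit that a count of 0 allows. The mitochondrial large rRNA MT-RNR2 had 402100 counts in the control library and 456166 in the SMC1A library (log2 ratio 0.17, 0.17 to 0.18). The small rRNA MT-RNR1 had 16461 and 17867 (0.11, 0.08 to 0.14). Both ratios lie above those of all 13 mitochondrial members in these 2 poly(A)-selected libraries, while the 22 mitochondrial tRNA rows were at 0 in both. The processed pseudogene UQCRFS1P1 had 101 and 64 counts (-0.66, -1.14 to -0.20), beside -0.27 for UQCRFS1. The pseudogene COX6A1P2 had 4 and 8 counts and the non-coding UQCRFS1-DT 5 and 3, too few to compare.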

How the results depend on the processing

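No paired analysis was possible because each guide has 1 library, and for the same reason no replicate could be left out. By library totals the median log2 ratio was -0.03 for all members, -0.03 for nuclear and 0.00 for mitochondrial members, and 0.00 for complex I, -0.12 for II, -0.11 for III, 0.06 for IV (reversed) and -0.05 for V; 1 member (NDUFC1) was 2-fold higher, and 26 and 33 members had intervals above and below 0. MT-CO2, MT-CO3, MT-ND1 and MT-ND4 became 0.06, 0.03, 0.00 and 0.00. The scaling itself, which adds 0.13 to each ratio, makes these shifts. Upper-quartile scaling gave -0.11 for mitochondrial members. With no minimum count 1 member (COX6B2) was 2-fold lower. Removing the trend of ratio with expression level over all genes, chosen after seeing the data, gave -0.04 for all members, 0.11 for mitochondrial members, and -0.14, -0.09, 0.06 and -0.04 for complexes II, III, IV and V. Removing the trend with transcript length, also chosen then, gave -0.07 for mitochondrial members, 0.02 for complex IV and -0.09 for complex V, and put complex III (-0.21) below complex II (-0.20). Mitochondrial counts per nuclear count went from a log2 ratio of 0.11 to 0.03 without MT-CO1 and ATP5F1B. Within complex IV it went from 0.11 to 0.03 without MT-CO1, and within complex V from 0.09 to 0.00 without ATP5F1B, both chosen after seeing the data. Of the list genes past 2-fold, TRMT10C (-0.98) and PFKP (-0.90) were lost and PKM (1.1) gained by library totals. DESeq2 size factors, TMM without mitochondrial and globin genes, other prior counts, other minimums and leaving out near-identical members shifted no median by more than 0.02; summed counts in place of medians shifted the complexes by at most 0.06. Depth limits the members under 100 counts, and with 1 library per guide the spread between cultures is unknown.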
